A study of Mus musculus with 4 samples.

Results

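The ligands and receptors of axon guidance were followed by cell type in the stria vascularis (SV), the epithelium of the cochlear lateral wall that generates the endocochlear potential. Members were chosen by name: genes whose symbol begins with Sema, Plxn, Epha, Ephb, Efna, Efnb, Slit, Robo or Unc5 (Slitrk genes left out), and Nrp1, Nrp2, Ntn1, Ntn4, Dcc and Neo1, listed for both cells and nuclei. The rule found 73 of 27873 genes, of which 33 were ligands, 35 were receptors and 5 were matches of name alone (Unc50, Unc5cl and 3 antisense transcripts of Plxna4). The 58 members with at least 30 unique molecular identifiers (UMIs, each standing for 1 captured transcript) over the 4 libraries are described, 28 ligands and 28 receptors among them, with Unc50 and Unc5cl. Libraries came from CBA/J mice (SV dissected at postnatal day 30, P30), with no treatment and no genetic change named in the labels: 3 captures of whole cells, each dissociated with trypsin, and 1 capture of nuclei. The labels give about 12 mice for a cell suspension and about 10 for the nuclei, so each library is a pool of animals, and the spread between captures is that between suspensions. For the cells, the paper's supplement instead names 5 mice in the first capture and 10 in each later one.

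Guidance ligands are secreted or held at the cell surface, and receptors on neighbouring cells read them as attraction or repulsion. Slits act through Robo receptors, netrins through Dcc, Neo1 and the Unc5 family, and ephrins, which stay anchored in the membrane, through Eph receptor tyrosine kinases. Semaphorins act through plexins, and most secreted class 3 semaphorins first bind a neuropilin (Nrp1 or Nrp2), which also binds vascular endothelial growth factors. Outside the nervous system the same families shape epithelia, vessels and the routes of migrating neural crest cells. In the SV, marginal cells form the epithelium facing the endolymph, intermediate cells are melanocytes of neural crest origin, basal cells form a layer joined by tight junctions, and spindle and root cells lie at the margins of the SV and in the spiral prominence.

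The 3 cell captures held 392, 1358 and 1580 barcodes with 2811309, 8113494 and 8340882 UMIs, and the nucleus capture held 11057 barcodes with 22332501 UMIs. After doublets were removed, clusters formed without the members were named from markers of each type. Cells gave 134 marginal, 936 intermediate, 125 basal and 30 spindle/root cells among 3152, and nuclei gave 2592, 1474, 645 and 200 among 9723. A further 1710 cells and 3758 nuclei lay in clusters left unnamed. In the cells, the summed markers of each of these 4 types stood highest in the type of that name. Marginal cells nevertheless held intermediate markers at 5567 to 9283 UMIs per 1000000 of the type's summed UMIs (CPM), and basal cells at 6937 to 11041 CPM, against 19867 to 28263 CPM in intermediate cells. Mitochondrial transcripts made up 35.1% to 38.5% of the UMIs of the cell captures and 20.7% of those of the nuclei. Cell captures shared 0 to 6 barcodes with one another and 7 to 32 with the nuclei.

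To ask which type held each member at the highest level, UMIs were summed over the cells of a type in each capture, and every type was set against the mean of the remaining 3 by edgeR's quasi-likelihood test with the capture as a block. Adjusted p-values are Benjamini-Hochberg values over the 7397 genes tested, with a threshold of 0.05, and a log2 fold change is against that mean unless another type is named. The mean is taken over log levels, so a type near 0 UMIs lowers it. A type called higher can thus lie below the plain mean CPM of the others. Of the 58 members, 25 had enough UMIs to be tested: 12 ligands, 12 receptors and Unc50. Since a member can pass this filter through the type in which it is high, counts over the 25 are descriptions and do not stand for all members. Spindle/root cells entered only from captures 2 and 3, with 14 and 12 cells, because capture 1 held 4. The nuclei, 1 library, were not tested, and their values carry exact Poisson intervals that cover counting error only. Reads came from transcript 3′ ends, so a level is compared between types for 1 gene. Sums over a family, and the part of 1 gene in such a sum, join levels of different genes and are descriptions only.

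Members were called higher in each of the 4 types. In marginal cells 7 of 25 members were called higher and 0 lower, beside 16.1% and 10.4% of all genes tested. By edgeR 2 members were lower in marginal cells at an unadjusted p under 0.05, and DESeq2 called 0 lower. For intermediate cells the counts were 9 higher and 9 lower, beside 18.3% and 17.2%. In basal cells 14 were called higher and 2 lower, beside 16.4% and 9.79%. Spindle/root cells had 4 higher and 7 lower, beside 12.4% and 9.90%. Being above each of the other types in turn is a stricter call, which 1 member passed in marginal cells (Epha5, beside 3.96% of all genes), 6 in intermediate cells (Nrp2, Sema6d, Sema7a, Plxnc1, Plxna1 and Sema4b, beside 6.10%), 1 in basal cells (Slit2, beside 4.53%) and 1 in spindle/root cells (Efna1, beside 6.27%). The median log2 fold change of the 25 was 0.30 in marginal, -0.22 in intermediate, 0.97 in basal and -0.53 in spindle/root cells, against 0.08, 0.04, 0.04 and -0.12 over all genes tested. With genes that had a type at 0 UMIs held at the bound of 3 UMIs, the members' medians were 0.21, -0.22, 0.89 and -0.23, against 0.06, 0.03, 0.02 and -0.07 over all genes.

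By role, ligands were called higher 2, 4, 8 and 2 times in marginal, intermediate, basal and spindle/root cells, and receptors 5, 5, 6 and 2 times, of 12 each. Ligands were called lower 0, 6, 2 and 3 times in the same order, and receptors 0, 3, 0 and 4 times. Of all genes tested, 16.1%, 18.3%, 16.4% and 12.4% were called higher and 10.4%, 17.2%, 9.79% and 9.90% lower. At an unadjusted p under 0.05 by edgeR, 1 receptor was lower in basal cells (Plxnb2) and 2 ligands were lower in marginal cells (Sema3b and Sema3d). The basal count rests largely on the comparison with a mean. Of the 14 members called higher there, 6 had their highest level in basal cells (Slit2, Sema4c, Sema6a, Ntn4, Ephb4 and Plxnd1), 6 in intermediate cells (Sema6d, Sema7a, Neo1, Nrp2, Plxna1 and Plxnc1) and 2 in spindle/root cells (Sema3b and Sema3d). Likewise, of the 7 called higher in marginal cells, Efna5 and Epha5 were highest there, Nrp2 and Plxnc1 in intermediate cells, and Efnb2, Epha7 and Plxnb2 in spindle/root cells. In both marginal and basal cells, Nrp2 lay below the plain mean CPM of the other types in 3 of 3 captures. Plxnc1 in both types and Sema6d in basal cells lay below it in 2 of 3. The rest called higher in these types lay above it in 2 or 3 captures. The basal count of 14 was 6 without doublet removal, 7 by DESeq2 and 3 among the cells with the least RNA of intermediate genes, where 16 members had enough UMIs to be tested, and leaving out capture 1, 2 or 3 gave 10, 8 or 9. Without capture 2 the counts higher were 4 in marginal and 1 in spindle/root cells, and without capture 3 the latter was 2. Shares of all genes called under these alternatives are not given. Epha5 and Slit2 lost the stricter call of standing above each other type without capture 2, without capture 3 and by DESeq2, and Efna1 lost it without capture 2 and by DESeq2. Sema4b lost it in 8 of 15 alternatives, among them DESeq2, no doublet removal, no TMM scaling and leaving out capture 2 or 3.

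**Figure D1:**
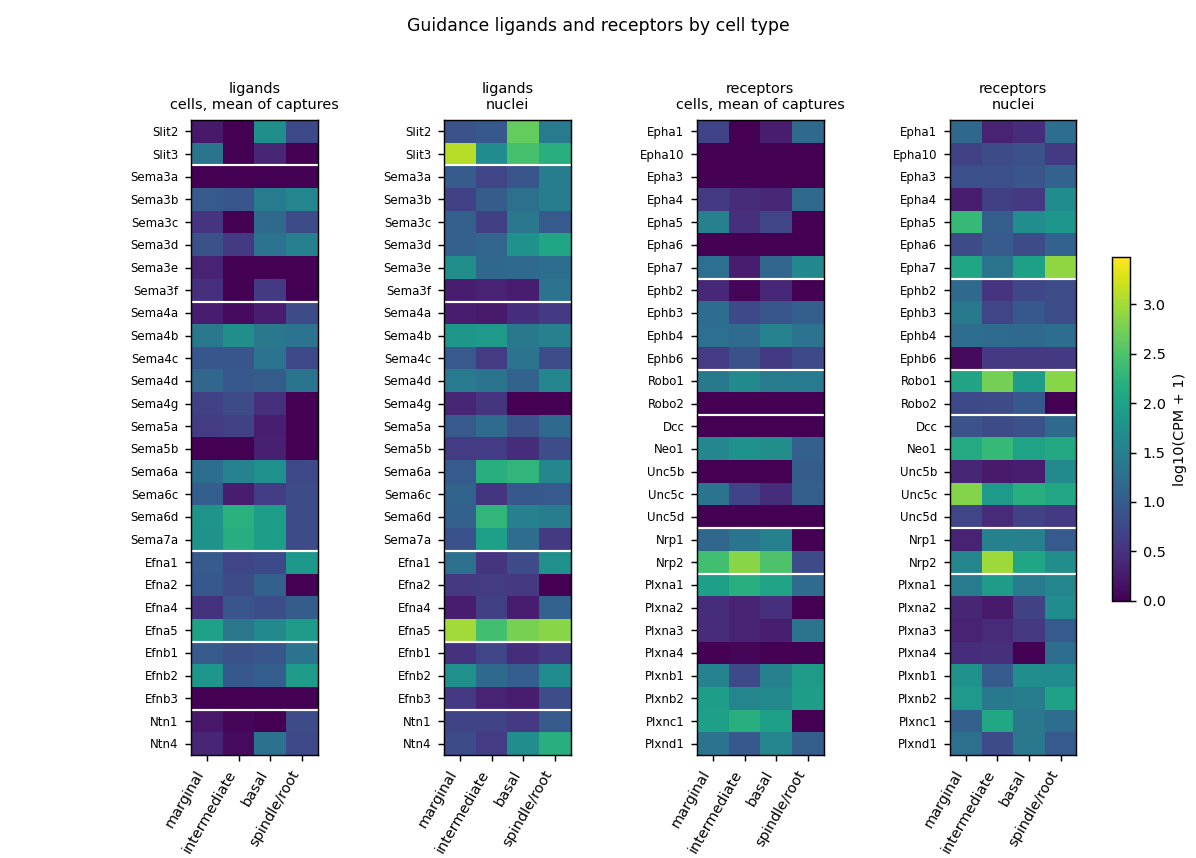
Level of each of the 28 ligands and 28 receptors described, as log10(CPM + 1), in marginal, intermediate, basal and spindle/root cells (mean of captures) and nuclei; white lines part the families. Of the types shown, Nrp2 is highest in intermediate cells and nuclei, and Slit3, Efna5 and Unc5c are highest in marginal nuclei.

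Of the semaphorin receptors tested, Nrp2, Plxna1 and Plxnc1 were called higher in intermediate cells, while Plxnb1 and Plxnb2 were called lower, with log2 fold changes of -2.99 ± 0.34 (SE, adjusted p = 1.83e-12) and -0.50 ± 0.19 (SE, adjusted p = 0.0266). The call of Plxnb2 in intermediate cells was lost by DESeq2, without doublet removal and without capture 1, 2 or 3, among other alternatives. The membrane-bound semaphorins Sema6d, Sema7a and Sema4b were also highest there. Nrp2 (the neuropilin that binds class 3 semaphorins and VEGF-C; chr1:62703285-62818695 in mm10, as for all gene positions below) reached 714, 756 and 710.2 CPM in intermediate cells of captures 1, 2 and 3. It was at 303, 249.5 and 241 CPM in marginal cells and at 405, 251 and 315 CPM in basal cells. Every intermediate sum lay above every sum of the other types, and in spindle/root cells Nrp2 had 1 UMI in all. Its log2 fold change was 3.57 ± 0.18 (SE, adjusted p = 1.24e-31), and against intermediate cells it was -1.79 ± 0.13 (SE, adjusted p = 1.80e-21) in marginal cells. Without capture 3 the former was 5.16. Nuclei gave the same order of the first 3 types, with 921 CPM (95% interval 884 to 959.7) in intermediate, 108 (89.8 to 129.7) in basal and 36.7 (31.3 to 42.9) in marginal nuclei. Spindle/root nuclei held Nrp2 at 5.57% of the intermediate level, beside 3.99% in marginal nuclei.

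Plxna1 (a plexin that signals with neuropilins; chr6:89316314-89362620) was at 169, 149 and 154 CPM in intermediate, 122, 102 and 97.0 in basal and 119.5, 74.5 and 74.1 in marginal cells. For Plxna1 the log2 fold change was 1.90 ± 0.19 (SE, adjusted p = 7.57e-15). Plxnc1 (the receptor of Sema7a; chr10:94790866-94944835) stood at 159, 149 and 147 CPM in intermediate cells. Marginal cells held it at 104, 89.4 and 82.6 CPM and basal cells at 74.9, 79.4 and 115 CPM, below intermediate cells in every capture. Spindle/root cells had 0 Plxnc1 UMIs, so intermediate cells were at least 9.91-fold higher against 3 UMIs over those sums. The log2 fold change of Plxnc1 in intermediate against basal cells was 1.03 ± 0.16 (SE, adjusted p = 6.50e-08). In the nuclei Plxnc1 was at 118 CPM (95% interval 105 to 132) in intermediate and 10.7 (7.88 to 14.3) in marginal nuclei.

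Sema7a, a semaphorin held in the membrane by a lipid anchor and the ligand of Plxnc1, was highest in the same type as its receptor (chr9:57940112-57962865). It reached 149, 134 and 156 CPM in intermediate, 122, 56.7 and 81.8 in basal and 79.7, 52.1 and 48.7 in marginal cells, and its log2 fold change was 2.62 ± 0.23 (SE, adjusted p = 2.49e-17). Sema6d, a transmembrane semaphorin that binds Plxna1, had 170.4, 138 and 193 CPM in intermediate cells (chr2:124089969-124667770). Basal cells held it at 116, 46.8 and 93.9 CPM and marginal cells at 83.7, 58.3 and 46.6 CPM, and its log2 fold change was 2.79 ± 0.23 (SE, adjusted p = 1.22e-18). Sema7a and Sema6d had 1 UMI each in spindle/root cells, and without capture 3 their log2 fold changes were 4.10 and 4.19. In nuclei, Sema6d was at 195 (178 to 213) CPM in intermediate, 31.9 (22.2 to 44.3) in basal and 11.2 (8.27 to 14.8) in marginal nuclei, and Sema7a at 90.9 (79.5 to 104), 16.4 (9.72 to 25.9) and 6.62 (4.43 to 9.50) CPM. No binding or signalling was measured, so a ligand and its receptor in 1 type are given as levels alone.

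Sema4b and Robo1 were the remaining members with their highest level in intermediate cells of every capture. Sema4b, a transmembrane semaphorin (chr7:80186841-80226527), had 54.9, 49.2 and 48.1 CPM in intermediate cells, and its log2 fold change was 1.55 ± 0.24 (SE, adjusted p = 4.47e-08). Its levels of 23.4, 23.9 and 19.9 CPM in marginal, basal and spindle/root cells stood near the 19.2 CPM of the erythroid cells of the same suspensions. In nuclei the intervals of both types overlapped, with 72.9 (62.7 to 84.3) CPM in intermediate and 67.5 (60.1 to 75.7) CPM in marginal nuclei. Robo1, a Slit receptor (chr16:72308306-73046095), was at 41.7, 46.9 and 41.9 CPM in intermediate, 27.7, 24.1 and 27.3 in basal, 19.9, 27.3 and 25.4 in marginal and 29.0 and 21.6 CPM in spindle/root cells. Its log2 fold change was 1.11 ± 0.23 (SE, adjusted p = 3.40e-05), but against spindle/root cells alone it was 1.23 ± 0.56 (SE, adjusted p = 0.095). The nuclei put Robo1 highest in spindle/root nuclei at 713 CPM (95% interval 627 to 807), followed among the 4 types by intermediate nuclei at 558 (529 to 588) CPM, with 108 (98.4 to 118) in marginal and 82.0 (65.9 to 101) CPM in basal nuclei. Neo1, a receptor of netrins and of repulsive guidance molecules, was also called higher in intermediate cells, at 50.2, 60.6 and 71.7 CPM beside 52.7, 56.7 and 45.5 CPM in basal cells.

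Members of the intermediate set were found in marginal and basal cells at larger shares of their intermediate level than in the corresponding nuclei. For Nrp2 the marginal level was 36.4% of the intermediate level in cells and 3.99% in nuclei, and the basal level was 44.5% and 11.8%. For Plxnc1 the marginal shares were 60.4% in cells and 9.10% in nuclei. Sema7a had 41.2% and 7.28%, and Sema6d 37.6% and 5.74%. The exception was Sema4b, at 46.1% in marginal cells and 92.6% in marginal nuclei. In spindle/root cells and nuclei the shares were 0.744% and 5.57% for Nrp2 and 0% and 14.5% for Plxnc1. Sema6d had 3.23% and 14.6% there, and Sema7a 3.70% and 3.14%. Plxna1 had 9.96% and 44.5%, beside 32.6% in marginal nuclei. Nuclei of the other types also held intermediate markers. These summed to 1715 CPM in marginal, 4968 in basal and 2578 in spindle/root nuclei, against 30342 CPM in intermediate nuclei. The part of such RNA in the nucleus shares of these members was not tested. For the cells a list of 110 other genes, each at least 20-fold higher in CPM in intermediate than in marginal nuclei, gives a level of intermediate RNA by type. Since the list was chosen for its low level in marginal nuclei, it is no independent evidence that marginal cells and nuclei differ. Summed, it stood in marginal cells at 29.3% of its intermediate level, in basal cells at 38.8%, in spindle/root cells at 6.52% and in erythroid cells at 3.53%. Its median gene stood at 35.6% in marginal and 45.6% in basal cells. The part of this RNA in the calls of Nrp2, Plxnc1, Sema6d, Sema7a and Plxna1 as higher in marginal or basal cells was not tested. Its part in the calls of the same members as lower in spindle/root cells was not tested either. A cluster of 41 basal nuclei held Nrp2 at 525 CPM (380.1 to 707), while the other 604 basal nuclei held it at 74.8 CPM (58.9 to 93.6). The same 41 nuclei held Sema6d at 159 against 21.7 CPM, Sema7a at 97.7 against 9.84 CPM and Robo1 at 354 against 60.1 CPM, so the basal nucleus values of these genes rest partly on them.

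**Figure D2:**
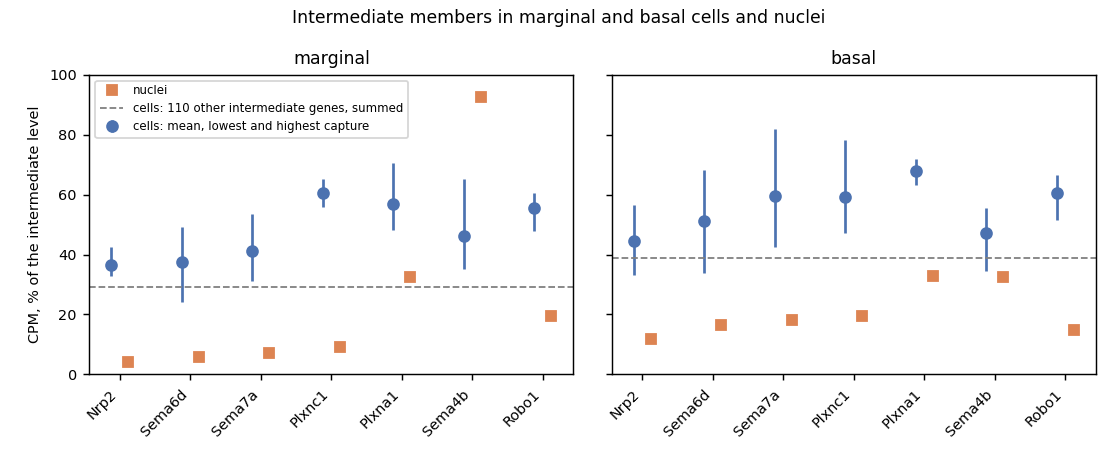
Level of the 7 intermediate members in marginal (left) and basal (right) samples as a percent of their intermediate level; circles are cells with the lowest and highest capture as bars, squares are nuclei, and the dashed line is the summed share of 110 other intermediate genes in the cells. Every square but that of Sema4b in marginal nuclei lies below its circle.

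The promoters of the intermediate members are shown for the sequence that MITF, the factor that drives melanocyte genes, can bind. The letters CATGTG were searched on both strands from 250 bases before to 50 bases after each start in the RefSeq promoter table (GRCm38.p6). Of the 7 intermediate members 6 were in the table, with 8 promoters, and 2 of these promoters held the letters, beside 14.2% of all 32851 promoters. They were those of Nrp2 (chr1:62703067-62703366, plus strand) and Robo1 (chr16:72662899-72663198, plus strand), given 5′ to 3′ with the match in capitals. The Robo1 start lies inside the annotated gene.
Nrp2: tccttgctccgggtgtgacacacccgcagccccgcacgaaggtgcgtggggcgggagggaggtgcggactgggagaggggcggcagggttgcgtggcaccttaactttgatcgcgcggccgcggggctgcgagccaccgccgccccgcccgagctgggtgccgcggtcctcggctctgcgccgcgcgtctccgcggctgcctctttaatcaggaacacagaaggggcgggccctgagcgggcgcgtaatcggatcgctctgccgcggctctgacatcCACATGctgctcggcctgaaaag
Robo1: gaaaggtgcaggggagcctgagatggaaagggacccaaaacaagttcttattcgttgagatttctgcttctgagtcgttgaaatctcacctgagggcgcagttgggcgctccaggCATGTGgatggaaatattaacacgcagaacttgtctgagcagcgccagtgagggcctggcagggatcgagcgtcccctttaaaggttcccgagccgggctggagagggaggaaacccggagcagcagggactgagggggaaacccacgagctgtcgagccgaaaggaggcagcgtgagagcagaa
In Robo1 the match reads CATGTG as spelled and lies upstream of the start, and in Nrp2 it reads as the reverse complement and lies downstream. The letters AAGGTCA, the half-site of estrogen-related receptors, were in 0 of 2 promoters of marginal members and 4.72% of all promoters. The letters CTTTGT, the core bound by SOX factors, were in 0 of 4 promoters of basal members and 18.7% of all. A match in these windows says nothing of binding, which was not measured.

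Epha5 and Efna5 were called higher in marginal cells and were highest there, and in the nuclei Slit3 and Unc5c were highest in the marginal type. Epha5 (an ephrin-A receptor; chr5:84054761-84417382) had 35.9, 34.8 and 25.4 CPM in marginal cells. Intermediate cells had 3.79, 1.14 and 1.22 CPM and basal cells 5.55, 1.42 and 6.06 CPM, so that the marginal sums did not overlap with the others. Spindle/root cells had 0 Epha5 UMIs, which puts marginal cells at least 2.09-fold higher against 3 UMIs over those sums. Epha5 was called above the mean of the other types (adjusted p = 4.05e-08), and its log2 fold change was 3.84 ± 0.50 (SE, adjusted p = 2.98e-10) against intermediate and 3.07 ± 0.62 (SE, adjusted p = 2.77e-05) against basal cells. Marginal nuclei held it at 211 CPM (95% interval 197 to 225), above spindle/root nuclei at 65.6 (41.6 to 98.4), basal nuclei at 49.2 (37.0 to 64.2) and intermediate nuclei at 10.4 (6.80 to 15.3) CPM. Nuclei named Reissner's membrane held more, at 902 CPM. All 4 markers of Reissner's membrane were detected in marginal cells, summing to 176 to 215 CPM against 24.2 to 33.2 CPM in intermediate and basal cells and 116 to 173 CPM in spindle/root cells. In nuclei they summed to 1434 CPM in the marginal, 716 in the spindle/root, 326 in the basal and 163 CPM in the intermediate type, and their part in the level of Epha5 was not tested.

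Efna5 (an ephrin-A ligand that binds several EphA receptors; chr17:62604184-62881317) was at 87.6, 86.9 and 114 CPM in marginal cells. It had 77.5 and 86.5 CPM in spindle/root, 47.1, 43.9 and 42.4 in basal and 26.5, 17.5 and 24.4 CPM in intermediate cells. The log2 fold change of marginal cells was 1.08 ± 0.19 (SE, adjusted p = 3.46e-06), and against spindle/root cells alone it was 0.37 ± 0.38 (SE, adjusted p = 0.536), which did not pass the test. Nuclei kept the order of all 4 types, at 988 (958 to 1017) CPM in marginal, 713 (627 to 807) in spindle/root, 579 (535 to 626) in basal and 266 (247 to 287) in intermediate nuclei. The spindle/root value joins clusters that differ, as given below. The cluster led by Ptprz1 and Anxa1 held more Efna5 than marginal nuclei, with counting intervals that did not overlap.

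Slit3 and Unc5c had few UMIs in the cells and many in the nuclei. Slit3, a secreted Robo ligand, was at 1249 CPM in marginal nuclei, 287 in basal, 157 in spindle/root and 46.5 CPM in intermediate nuclei. In marginal cells it had 32 UMIs and 15.9, 18.6 and 27.5 CPM in captures 1, 2 and 3, against 0 UMIs in intermediate and 2 in basal cells. Marginal cells were thus at least 42.3-fold above intermediate cells, against 3 UMIs over the intermediate sums. Both marginal clusters of nuclei carried Slit3, at 1370.3 CPM (1330.4 to 1411) among 2232 nuclei and 895 CPM (840.3 to 952) among 360. Unc5c, a netrin receptor that mediates repulsion, was at 668 (644 to 693) CPM in marginal nuclei and 153 (131 to 178) in basal nuclei, the next highest of the 4 types, while nuclei named fibrocyte held it at 559 CPM. In cells Unc5c had 19.9, 21.1 and 21.2 CPM in the marginal and 3.79, 4.57 and 3.67 CPM in the intermediate type. The markers of marginal cells summed to 10926 CPM in marginal, 3024 in basal, 2541 in spindle/root and 846 CPM in intermediate nuclei. The part of marginal RNA in the basal and spindle/root nucleus levels of Slit3, Unc5c and Epha5 was not tested. Sema3e, the class 3 semaphorin that binds Plxnd1 directly, was at 51.3 (44.8 to 58.5) CPM in marginal nuclei and at most 17.1 CPM in the other types, with 3 UMIs in marginal cells. Ephb3, an ephrin-B receptor, was at 16.9 ± 3.86 CPM (SD, n = 3) in marginal cells and 24.4 (20.0 to 29.5) CPM in marginal nuclei, its highest level in both.

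Slit2 and Ntn4, both secreted ligands, were called higher in basal cells and were highest there in every capture, as were Sema6a, Plxnd1 and Ephb4. Sema3c, also secreted, was highest of the 4 types in basal cells and nuclei but had too few UMIs for a test. Slit2 (a Robo ligand; chr5:47983138-48307733) had 44.4, 62.4 and 51.5 CPM in basal cells. In the other types it had 1 UMI in marginal, 0 in intermediate and 1 in spindle/root cells, against 77 UMIs in basal cells. Against 3 UMIs over the intermediate sums, basal cells were at least 108-fold higher. Slit2 was called above the mean of the other types (adjusted p = 1.25e-16) and above each one of them. Basal nuclei held it at 446 CPM (95% interval 408 to 488), with 25.7 (11.7 to 48.7) in spindle/root, 8.01 (4.89 to 12.4) in intermediate and 6.84 (4.62 to 9.77) CPM in marginal nuclei. Nuclei named fibrocyte also held Slit2, at 719.9 CPM in 165 nuclei. All 5 fibrocyte markers were detected in basal cells, and summed they were at 69.3, 125 and 133 CPM in basal cells of captures 1, 2 and 3 and at 17.4 to 47.8 CPM in marginal cells. They were highest in spindle/root cells, at 194 and 205 CPM in captures 2 and 3, where Slit2 had 1 UMI. Their part in the basal level of Slit2 was not tested.

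Ntn4 (a netrin of basement membranes; chr10:93640681-93747207) was at 11.1, 25.5 and 21.2 CPM in basal cells, with 29 of its 33 UMIs in the 4 types. Its log2 fold change was 4.08 ± 0.69 (SE, adjusted p = 1.10e-06), and in 5 alternatives, no doublet removal and leaving out capture 2 among them, its UMIs were too few for a test. Without capture 1 the value was 4.99. Nuclei placed Ntn4 otherwise, at 154 (116 to 201) CPM in spindle/root and 49.2 (37.0 to 64.2) CPM in basal nuclei. Within the spindle/root nuclei it was at 269 CPM (201 to 354) in the cluster led by Epyc and Lgr5 and at 18.6 CPM (3.84 to 54.3) in the cluster led by Anxa1. Sema6a, a transmembrane semaphorin, had 47.1, 61.0 and 57.6 CPM in basal, 27.5, 42.3 and 31.8 in intermediate, 23.9, 16.1 and 10.6 CPM in marginal cells and 1 UMI in spindle/root cells. The basal sum was the highest in every capture. The log2 fold change was 1.99 ± 0.36 (SE, adjusted p = 4.82e-06) for basal cells and -0.42 ± 0.22 (SE, adjusted p = 0.129) for intermediate against basal cells. Without capture 2 the basal value was 3.54. In nuclei it was at 193 (168 to 221) CPM in basal and 148 (133 to 164) in intermediate nuclei, against 8.67 (6.13 to 11.9) in marginal nuclei.

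Plxnd1 (the plexin of Sema3e, known from vessels; chr6:115954811-115995005) was at 36.0, 39.7 and 36.4 CPM in basal and 23.9, 21.1 and 14.8 in marginal cells. The change against the mean was 1.68 ± 0.38 (SE, adjusted p = 3.01e-04) on the log2 scale. Ephb4 (the receptor of Efnb2, known from veins; chr5:137350109-137378669) was at 19.4, 29.8 and 51.5 CPM in basal, 15.9, 14.9 and 21.2 in marginal and 16.1, 12.2 and 18.7 CPM in intermediate cells. Its log2 fold change was 0.97 ± 0.36 (SE, adjusted p = 0.0336), a call that was lost by DESeq2 (adjusted p = 0.18), without the capture block (0.0663) and without capture 2 (0.0555) or capture 3 (0.425). Nrp1, a co-receptor of class 3 semaphorins and of VEGF-A, was at 5.55, 18.4 and 72.7 CPM in basal cells of captures 1, 2 and 3 and passed no call. Its mean was highest in basal cells, but in 2 of 3 captures intermediate cells held the most. Of the 4 types of nuclei, the intermediate type held the most Nrp1. All 6 endothelial and 5 pericyte markers were detected in basal cells and also in marginal cells. In captures 1, 2 and 3, marginal cells held the endothelial markers at 23.9, 1.24 and 33.9 CPM. They held the pericyte markers at 163, 1.24 and 52.9 CPM. Basal cells of capture 3 held the 6 endothelial markers at 145 CPM and the 5 pericyte markers at 182 CPM, against 19.4 and 8.51 CPM and 2.77 and 5.67 CPM in captures 1 and 2. Ephb4 and Nrp1 were highest in that capture, and the part of vessel cells in their levels was not tested. In nuclei Ephb4 lay between 14.6 and 17.1 CPM in all 4 types.

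Sema3b, Sema3d and Sema3c, secreted ligands read through neuropilins, were at 26.5, 20.2 and 14.9 CPM in basal cells. In intermediate cells, which held the most Nrp2, they were at 7.54, 2.89 and 0 CPM. Sema3b and Sema3d were called lower in intermediate and higher in basal cells, with their highest means in spindle/root cells at 36.7 and 31.3 CPM from 7 and 6 UMIs. The basal call was lost by DESeq2 and without capture 2 for both. For Sema3b it was also lost without doublet removal, the block, capture 1 or capture 3. The intermediate call of Sema3b was lost by DESeq2 and without capture 2 or 3. None of these calls was kept among the cells with the least RNA of intermediate genes. The nuclei gave Sema3d 108 (76.7 to 149) CPM in spindle/root, 60.1 (46.5 to 76.5) in basal, 12.4 (8.44 to 17.6) in intermediate and 10.7 (7.88 to 14.3) in marginal nuclei. Sema4c, a transmembrane semaphorin called higher in basal cells, was at 2.77, 26.9 and 30.3 CPM there and at 21.0 (13.3 to 31.4) CPM in basal nuclei. Its call was lost by DESeq2, without capture 2 or 3 and among the cells with the least RNA of intermediate genes.

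Efna1, Efnb2, Epha7 and Plxnb1 were called higher in spindle/root cells and were highest there, with small counts. The spindle/root cells joined clusters in unlike proportions, with 10 and 4 cells in capture 2 and 6 and 6 in capture 3. The part of this mixture in the levels was not tested. Efna1 (an ephrin-A ligand; chr3:89271733-89281142) was at 96.8 and 43.3 CPM in captures 2 and 3, from 14 UMIs. Marginal cells had 3.98, 18.6 and 4.24 CPM, intermediate cells 4.73, 4.96 and 3.26 CPM and basal cells 2.77, 0 and 12.1 CPM in captures 1, 2 and 3, so that the groups did not overlap. The log2 fold change was 3.35 ± 0.68 (SE, adjusted p = 5.34e-05), and it was 2.71 (adjusted p = 0.184) without capture 2 and 4.04 without capture 3. Spindle/root nuclei held Efna1 at 54.2 CPM (95% interval 32.6 to 84.6), above marginal nuclei at 18.3 (14.5 to 22.7), basal nuclei at 5.47 (2.01 to 11.9) and intermediate nuclei at 2.40 (0.882 to 5.23) CPM.

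Efnb2 (the ligand of Ephb4 and other EphB receptors; chr8:8617434-8661242) was shared by spindle/root cells, at 87.1 and 75.7 CPM, and marginal cells, at 71.7, 57.1 and 69.9 CPM. It was at 4.73, 9.53 and 9.77 CPM in intermediate and 5.55, 2.84 and 21.2 CPM in basal cells and was called higher in both former types. The spindle/root log2 fold change of Efnb2 was 1.97 ± 0.50 (SE, adjusted p = 0.00154), and the marginal against spindle/root difference was -0.15 ± 0.45 (SE, adjusted p = 0.849). In nuclei it was at 54.5 (47.8 to 61.9) CPM in marginal, 48.5 (28.2 to 77.6) in spindle/root, 14.4 (10.1 to 20.0) in intermediate and 10.0 (5.00 to 17.9) CPM in basal nuclei. Without capture 2 the adjusted p for Efnb2 in spindle/root cells was 0.153, and among the cells with the least RNA of intermediate genes it was 0.205.

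Epha7 (an ephrin-A receptor; chr4:28813131-28967499) was at 29.0 and 54.1 CPM in spindle/root cells, from 8 UMIs, and at 15.9, 23.6 and 12.7 CPM in marginal, 5.55, 11.3 and 21.2 in basal and 1.89, 0.762 and 0 CPM in intermediate cells. For Epha7 the log2 fold change was 2.54 ± 0.78 (SE, adjusted p = 0.0111), with an adjusted p of 0.087 without capture 2, and it was 1.80 (adjusted p = 0.39) without capture 3. The nuclei separated the types further, at 784 CPM (95% interval 694 to 883) in spindle/root, 114 (104 to 124) in marginal, 93.8 (76.6 to 114) in basal and 20.8 (15.6 to 27.3) CPM in intermediate nuclei. Nuclei named Reissner's membrane held Epha7 at 1980.1 CPM. The 2 spindle/root clusters of nuclei held it at 787 CPM (666 to 924) and 781 CPM (651 to 930.0). Plxnb1 (the receptor of Sema4d; chr9:109095389-109119917) had 67.8 and 86.5 CPM in spindle/root, 27.9, 42.2 and 31.8 in marginal, 41.6, 22.7 and 30.3 in basal and 7.57, 3.43 and 3.67 CPM in intermediate cells. The log2 fold change of Plxnb1 was 2.03 ± 0.51 (SE, adjusted p = 0.00139), with an adjusted p of 0.0917 without capture 3 and 0.202 among the cells with the least RNA of intermediate genes. Marginal nuclei held it at 60.7 (53.6 to 68.4) CPM, basal nuclei at 50.1 (37.7 to 65.2) and spindle/root nuclei at 48.5 (28.2 to 77.6) CPM, with overlapping intervals, above intermediate nuclei at 9.21 (5.84 to 13.8) CPM. Plxnb2, a receptor of class 4 semaphorins, was called higher in marginal cells, at 83.7, 79.5 and 95.3 CPM, with 77.5 and 97.3 CPM in spindle/root cells. This marginal call was lost by DESeq2 and without capture 3, among other alternatives.

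The nuclei showed further receptors in the spindle/root type, and its 2 clusters had counting intervals that did not overlap for some of them. The cluster of 102 nuclei led by Ceacam16, Epyc and Lgr5 held Unc5b, a netrin receptor, at 84.5 CPM (48.3 to 137), and the cluster of 98 led by Ptprz1 and Anxa1 had 0 Unc5b UMIs. Robo1 was at 349 CPM (269.6 to 443) in the former and 1141 CPM (982 to 1318) in the latter. Efna5 stood at 264 CPM (196 to 348) and 1239.8 CPM (1074 to 1424), and Sema3d at 26.4 CPM (8.57 to 61.6) and 205 CPM (141 to 287). The clusters came from 1 library and were formed without the members, so these intervals cover counting error only. Epha4 was at 48.5 (28.2 to 77.6) CPM in spindle/root nuclei and at most 3.61 CPM in the other 3 types, while nuclei named Reissner's membrane held it at 155 CPM. Plxna2, a receptor of Sema6a, was at 48.5 (28.2 to 77.6) CPM, against at most 3.64 CPM in the other 3 types, while nuclei named fibrocyte held it at 110.1 CPM.

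**Figure D3:**
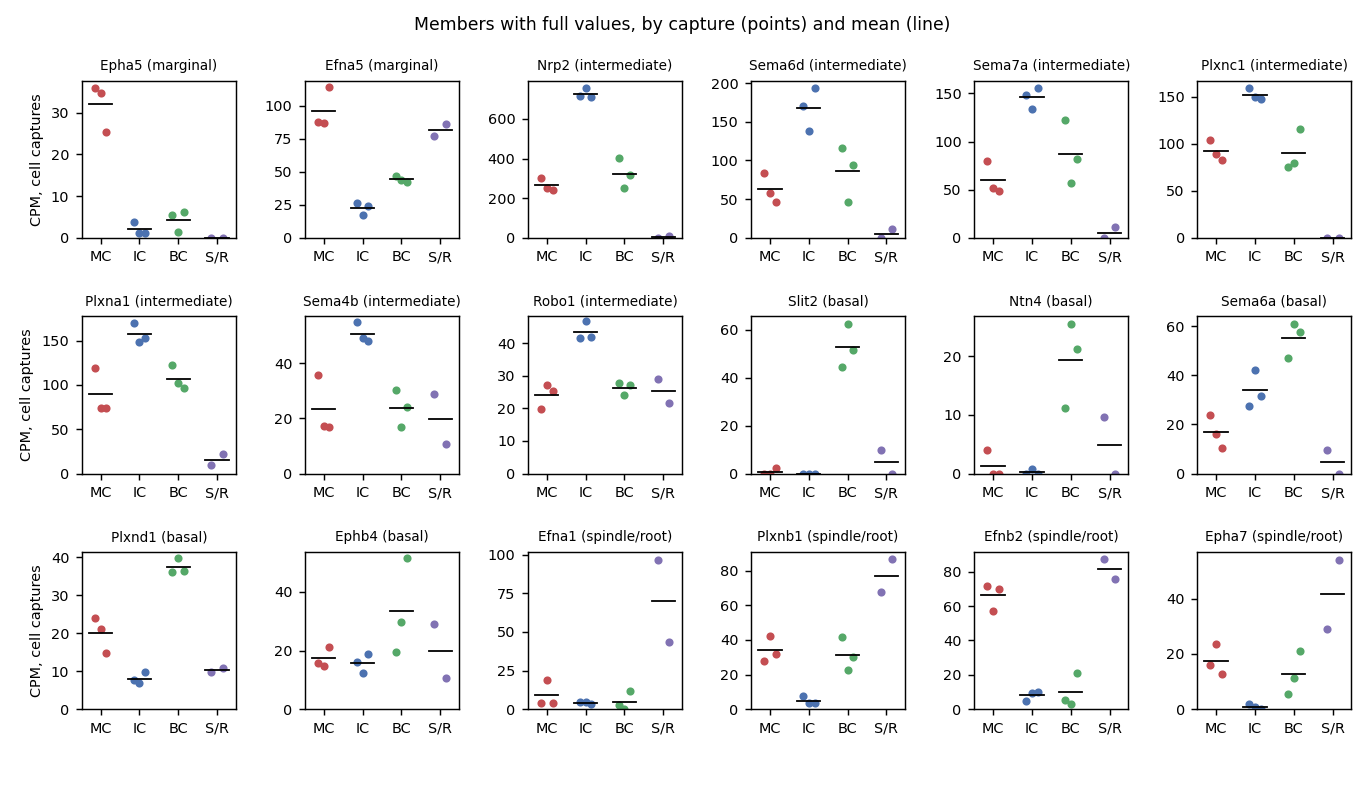
CPM of the 18 members given in full, by capture (points) and mean (line), in marginal (MC), intermediate (IC), basal (BC) and spindle/root (S/R) cells; the type in each title is the one in which the member was called higher. Spindle/root has 2 points, from captures 2 and 3, and the axis of each panel starts at 0.

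Ligand families and the receptor families that read them were summed by type in the nuclei. Slits were at 1256 CPM in marginal and 734 CPM in basal nuclei, and at 54.9 CPM in intermediate and 183 CPM in spindle/root nuclei. Robo receptors were high where Slits were low, at 563 CPM in intermediate and 713 CPM in spindle/root nuclei against 113 CPM in marginal and 90.2 CPM in basal nuclei. Slit3 gave most of the marginal Slit sum, Slit2 most of the basal one, and Robo1 nearly all of the Robo sums. In the cells the Robo sum was likewise highest in intermediate cells, at 43.5 CPM, but spindle/root cells were lowest, at 25.3 CPM. The Slit sum in cells was 54.1 CPM in basal, 21.4 CPM in marginal, 4.84 CPM in spindle/root and 0 CPM in intermediate cells.

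In nuclei, ephrin-B ligands and EphB receptors were both highest in the marginal type, at 59.5 and 58.2 CPM. The ephrin-B ligands were at 57.0 CPM in spindle/root nuclei. For the remaining pairs of families the highest types of ligands and receptors in the nuclei differed by value, for plexins within counting error. Ephrin-A ligands and EphA receptors were both lowest in intermediate nuclei, at 276 and 56.1 CPM. The ligands reached 1009.5 CPM in marginal nuclei and the receptors 941 CPM in spindle/root nuclei, their highest levels. In cells too, EphA receptors were at 5.04 CPM in intermediate against 58.3 CPM in marginal and 71.7 CPM in spindle/root cells, and ephrin-A ligands were lowest in intermediate cells but highest in spindle/root cells, at 40.1 and 162 CPM. Netrins were at 163 CPM in spindle/root nuclei and 7.21 CPM in intermediate nuclei, while netrin receptors were at 814 CPM in marginal nuclei and between 264 and 305 CPM in the rest. The cells had another order, with netrins highest in basal cells at 19.3 CPM, above spindle/root cells at 10.2 CPM, and netrin receptors at 64.8 CPM in intermediate and 60.6 CPM in marginal cells. Class 3 semaphorins were highest in spindle/root nuclei, at 211 CPM, and lowest in intermediate nuclei, at 44.9 CPM, whereas neuropilins were at 955 CPM in intermediate nuclei and at most 140.3 CPM in the others. Semaphorins of classes 4 to 7 were highest in intermediate nuclei, at 556 CPM, and plexins ranged from 159 CPM in basal to 282 CPM in spindle/root nuclei. The plexin interval of spindle/root nuclei (229 to 344) overlapped that of intermediate nuclei, at 245 (226 to 265) CPM. In cells plexins were lowest in spindle/root cells, at 211 CPM, and highest in intermediate cells, at 362 CPM. Semaphorins of classes 4 to 7 were highest in that same type of cells, at 424 CPM.

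**Figure D4:**
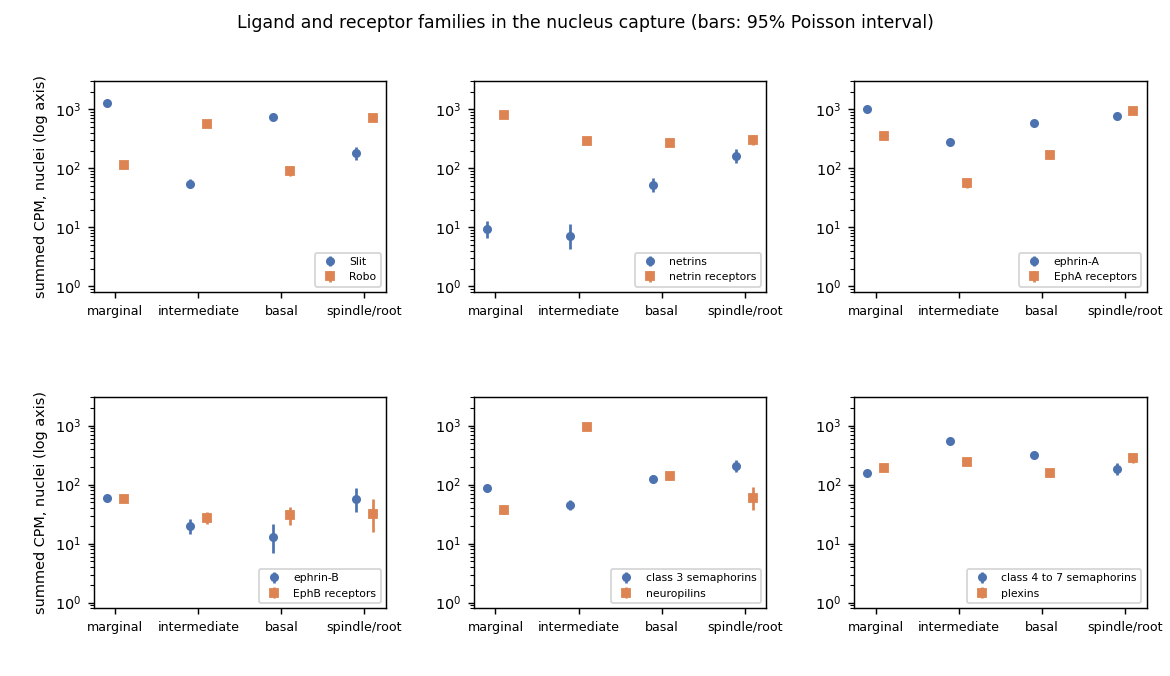
Summed CPM (log axis) of 6 ligand families (circles) and the receptor families that read them (squares) in the 4 types of the nucleus capture; bars are 95% Poisson intervals, which cover counting error only. Slit sums are highest in marginal and basal nuclei and Robo sums in spindle/root and intermediate nuclei, and ephrin-A and EphA sums are both lowest in intermediate nuclei.

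Cells and nuclei placed most members in the same type. Of 41 members with at least 10 UMIs over the 4 types in each data set, 30 had the same highest type in both, beside 50.5% of 11243 genes held to the same minimum. The 11 that differed were Efna2, Efnb1, Efnb2, Ntn4, Unc50, Ephb4, Ephb6, Robo1, Nrp1, Plxna2 and Plxnb1. Among them, Ntn4, Unc50, Ephb6, Robo1 and Plxna2 were highest in spindle/root nuclei but in another type of cells, and Efnb1, Efnb2 and Plxnb1 were highest in spindle/root cells but in another type of nuclei. By role, 21 ligands were highest in marginal, intermediate, basal and spindle/root cells 3, 5, 6 and 7 times, and 19 receptors 3, 6, 4 and 6 times. Nuclei gave 5, 7, 4 and 11 of 27 ligands and 7, 5, 3 and 13 of 28 receptors. These counts by type have no share over all genes beside them and are descriptions only. Spindle/root sums held the fewest UMIs of the 4 types, at 195742 in cells and 350669 in nuclei.

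Several members were read almost only in nuclei or were scarce. Sema3a, Efnb3, Epha3, Epha6, Epha10, Robo2, Dcc and Unc5d had 0 UMIs in the cells of all 4 types, which in intermediate cells allows up to 0.489 CPM (3 UMIs over the sums), and had 18 to 69 UMIs in the 4 types of the nuclei. Unc5b had 2 UMIs in spindle/root cells and 0 in the other types. Under 30 UMIs over the 4 libraries were Slit1, Sema3g, Sema4f, Sema6b, Efna3, Epha2, Epha8, Ephb1, Robo3, Robo4, Unc5a, Plxnb3 and the 3 antisense transcripts of Plxna4. Unc50 and Unc5cl match the names of the Unc5 family without being netrin receptors. Unc50 had 41.3, 34.5, 35.8 and 40.4 CPM in marginal, intermediate, basal and spindle/root cells and passed no call. Genes on the opposite strand overlapped 15 of the 58 members, 8 of them given in full (Slit2, Sema6d, Ntn4, Epha7, Ephb4, Nrp2, Plxna1 and Plxnb1), and whether counting used strand is not given in the sources used here. Without strand, reads of such a pair could not be told apart.

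Further genes of the pathway were taken from a list of 62 co-factors, other cues and intracellular effectors, of which 61 were found by symbol and 33 were tested. Unlike the members, genes of this list were not kept out of the variable genes that formed the clusters. Their calls are thus not independent of the naming of types and are descriptions. Of these 33, marginal, intermediate, basal and spindle/root cells had 6, 10, 13 and 6 called higher and 6, 7, 2 and 6 called lower, and 1, 4, 4 and 4 above each other type. Beside them stand the shares of all genes tested, in the same order 16.1%, 18.3%, 16.4% and 12.4% higher, 10.4%, 17.2%, 9.79% and 9.90% lower, and 3.96%, 6.10%, 4.53% and 6.27% above each other type. In basal cells, 3 regulators of actin led: Enah at 1512 CPM (log2 fold change 2.56 ± 0.10, SE, adjusted p = 1.79e-37), Ablim3 at 141 CPM and Ablim1 at 256 CPM. Those 3 were at 118, 1.37 and 23.3 CPM in intermediate cells. Intermediate cells were led by Nrcam, an adhesion molecule that associates with Nrp2, at 217 CPM (log2 fold change 2.88 ± 0.20, SE, adjusted p = 2.65e-22), by Tiam1, an activator of Rac, at 206 CPM and by Gpc1, a glypican, at 131 CPM. Nrcam is also in the list of 110 intermediate genes above. Marginal cells were led by Dpysl3, a phosphoprotein of the semaphorin pathway, at 81.6 CPM against 6.70 to 25.9 CPM elsewhere, by Srgap3 at 48.2 CPM and by Vegfc, the growth factor that binds Nrp2, at 32.6 CPM. Spindle/root cells were led by Srgap1, a GTPase-activating protein that binds Robo1, at 72.3 CPM against 2.36 CPM in marginal and 0 UMIs in basal cells, by Cfl1 at 507 CPM and by Plxdc2 at 111 CPM. Srgap1 was among the genes that led a spindle/root cluster of nuclei.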

How the data were processed

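SV cells (3 captures) and nuclei (1 capture) were profiled on the 10x Genomics 3′ platform. The authors processed reads with Cell Ranger 2.0.0 on mm10, and the paper names default settings and the mm10 genome offered by 10x Genomics. The deposited values are raw UMI counts per gene and barcode. The release of the annotation and the handling of introns are not named in the sources used here. Barcodes with under 200 genes were dropped, and putative doublets were removed in proportion to the barcodes of a capture by Scrublet score in scanpy 1.11.5 (377, 1314, 1461 cells and 9723 nuclei remained). Cells and nuclei were clustered separately in Seurat 5.3.0 (2000 variable genes without the members, resolution 0.8), and clusters were named from fixed markers. A cluster whose markers averaged under 1 divided by 3 of their level in the highest cluster of its class stayed unnamed. That limit was added after the clusters, and the levels of a few members in them (among them Nrp2, Epha5, Slit3, Efna5, Plxna2 and Sema3c), were known but no test between types had been run.

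UMIs were summed per type and capture (at least 5 cells) and tested in R 4.3.3 with edgeR 4.0.16 (TMM, filterByExpr, robust quasi-likelihood, capture as block). Same-capture sums deviated together only weakly (r from -0.00053 to 0.298 over 15 pairs and 2759 genes), and the pairing comes from the shared suspension. In simulated counts on 7397 genes for the marginal comparison, edgeR found 54 of 97 genes with a 2-fold change, 88 of 103 with a 4-fold change and 12 genes with none. DESeq2 1.42.0 found 38, 83 and 1. Levels are UMIs per 1000000 of the sum, without TMM. Poisson intervals are exact at 95%. Coordinates are those of GENCODE vM21 and promoters those of RefSeq (GRCm38.p6).

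Full values were given to members called higher in a type and highest there in each capture holding it, the first 8 by adjusted p. Of other guidance genes, the 3 per type with the smallest adjusted p were named. The members and lists were chosen with earlier results of these data known. Alternatives covered doublet removal, resolution, variable genes, DESeq2, scaling, the filter, the block, single captures, cells per sum and cells with the least RNA of intermediate genes.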

Additional observations from a re-analysis of the deposited data

Results flagged for a closer look

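Neo1 stood in opposite order in cells and nuclei. Basal cells held it at 51.6 CPM and marginal cells at 39.9 CPM on average over 3 captures, with the basal sum higher in each capture, though this difference did not pass edgeR's test (log2 fold change of marginal against basal cells -0.51 ± 0.27, SE, adjusted p = 0.143), whereas marginal nuclei held 134 CPM and basal nuclei 100.2 CPM, a ratio of 1.33. The difference between cells and nuclei was not tested, since the nuclei are 1 library.

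Nuclei outside the 4 types, which enter no comparison, held some members above the level in each of the 4 types. In 165 nuclei named fibrocyte, Slit2 was at 719.9 CPM, Robo2 at 476 CPM, Nrp1 at 226 CPM, Dcc at 205 CPM, Sema5a at 119 CPM, Epha3 at 62.5 CPM and Unc5d at 41.6 CPM. Slit2 and Robo2, a ligand and a receptor of the same pathway, were thus both high in this type. In 99 nuclei named Reissner's membrane, Robo1 was at 2396 CPM, Epha7 at 1980.1 CPM, Epha5 at 902 CPM, Sema3a at 676 CPM, and Sema3c and Epha4 at 155 CPM each. Each value rests on at least 10 UMIs of 1 library. Of the members that had 0 UMIs in cells of the 4 types, Sema3a, Epha3, Robo2, Dcc and Unc5d were among these.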

How the results depend on the processing

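Of 270 values of the members given in full under the alternatives, 261 could be tested, of which 250 kept their side of the threshold, 11 lost it and none changed sign. The other 9, too low in counts for a test, were Ntn4 in 5 alternatives and Epha5, Robo1, Sema4b and Ephb4 among the cells with the least RNA of intermediate genes. Members given in full were chosen as called higher and highest in each capture. Their keeping of sign and side was thus partly set in advance and does not measure how robust the calls are. Picking cells by low RNA of intermediate genes can itself raise the intermediate members against the other types. Sizes moved more than directions, with log2 fold changes over the alternatives from 2.20 to 6.68 for Nrp2, 2.71 to 4.92 for Efna1, 1.42 to 3.89 for Efnb2 and 1.53 to 3.47 for Plxnd1. The counts moved more. They are given without the share of all genes called under the same alternative. A shift of the members is thus not told apart from a shift of all genes. Without doublet removal basal cells had 6 members higher and 8 lower. At resolution 0.4, 1 was lower in marginal cells. By DESeq2 the counts above each other type were 0 in marginal, 0 in basal and 0 in spindle/root cells, and basal cells had 7 higher and 1 lower. Without TMM scaling, which moved the median of all genes to 0.16 in marginal, -0.29 in intermediate and 0.14 in spindle/root cells, 2 members stood above each other type in basal cells. Among the cells with the least RNA of intermediate genes (16 members tested), marginal cells had 4 higher, basal cells 3 higher and 1 lower, intermediate cells 4 lower, spindle/root cells 2 higher and 3 lower, and 0 were above each other type in marginal, basal and spindle/root cells. Without the limit on marker level, added after the data were seen, 3 were lower in marginal and 1 in basal cells, and 0 were above each other type in marginal cells; with 4 cells per sum, also added later, 2 were above each other type in basal cells. The cause of these shifts was not tested. Leaving out 1 capture gave 4 to 10 higher and 0 to 1 lower in marginal, 9 to 10 higher and 5 to 8 lower in intermediate, 8 to 10 higher and 0 to 3 lower in basal and 1 to 4 higher and 5 to 7 lower in spindle/root cells, with 0 to 1 above each other type in marginal, basal and spindle/root cells, 5 to 6 in intermediate cells and 26 to 30 members with the same highest type in cells and nuclei. Without the capture block, 10 members were higher in basal cells (Sema3b, Sema6d, Ephb4 and Neo1 were lost), 3 were lower, and no other count changed. Depth limits spindle/root cells most, at 195742 UMIs over their sums.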
